A study of Mus musculus with 6 samples.

Results

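The genes described here encode the proteins of the cytosolic ribosome. They were taken by symbol, as Rpl or Rps followed directly by a number with the Rps6k kinases left out, together with Rplp0, Rplp1, Rplp2 and Rpsa. The rule found 75 genes, measured by 122 probes, among 15123 named genes measured by 22941 probes. By what their symbols say, 40 are large-subunit genes, 24 are small-subunit genes, 4 are the stalk genes and Rpsa, and 6 are paralogues of another ribosomal protein gene. The remaining gene, Rps19bp1, encodes a binding partner of Rps19 and is no ribosomal protein, although the symbol rule takes it in. Some other cytosolic ribosomal protein genes were not analysed here.

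The samples are pieces of gastric antrum, the lower stomach, from mice at postnatal day 14. One group is homozygous for an oncogenic germline Kit allele, K641E, labelled KitK641E:Neo/K641E:Neo in the design text, and the other is the KitWT/WT littermates. The allele is in the germline, so it is carried by every cell of the animal and not by the gut wall alone. Both animals of a pair were compared on 2 arrays, the second with Cy5 and Cy3 exchanged, which makes 6 arrays of 3 littermate pairs with the pair as the replicate. The pairs were not alike in the Y-linked gene Eif2s3y, which stood at -0.03, -0.05 and -5.06 in pairs 1, 2 and 3. The part of a sex difference within pair 3 was not tested. Values are given as log2 ratios whose base is inferred from their range and whose direction is likely that of mutant over wild type. That direction takes red over green as the order, under which Spry4 (1.38 ± 0.36, SE, n = 3) and Tpbg (1.96 ± 0.42) are above 0, and both are up-regulated by the mutant in the paper's title.

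A ribosome joins a small subunit, which reads the messenger RNA, to a large subunit, which forms the peptide bonds. Its proteins are made in near-equal numbers, and their mRNAs begin with a tract of pyrimidines, the 5′ terminal oligopyrimidine (TOP) motif, through which mTOR and LARP1 set how well they are translated. Growth factor receptors such as Kit act on this system through PI3-kinase, mTOR and the S6 kinases, and Rps6 is the classical S6 kinase substrate. Much of this control acts on translation and on phosphorylation, which mRNA ratios do not measure. Ratios hold no level either, so whether the pieces express antral markers was not checked here. In bulk tissue, fewer cells of a type and less RNA per cell cannot be told apart.

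The start sites of 10 members are shown because the text returns to these genes and because they include starts with and without a pyrimidine run nearby. Each stretch holds 30 bases before and 20 from an annotated start, from RefSeq on GRCm38.p6, 5′ to 3′ on the gene's strand. Of several starts, the one with the longest pyrimidine run was taken, and Rps27l and Rpl3l have 2. For Rps2 and Rps27l the start shown lies inside the annotated span of the gene and not at its end. Capitals mark the longest run of C and T that begins between 20 bases before and 30 after the start.
Rps6 (chr4:86857348-86857397, minus strand): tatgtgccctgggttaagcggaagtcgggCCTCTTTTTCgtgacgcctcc
Rps27 (chr3:90213629-90213678, minus strand): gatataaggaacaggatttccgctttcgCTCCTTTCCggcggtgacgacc
Rpl13a (chr7:45128726-45128775, minus strand): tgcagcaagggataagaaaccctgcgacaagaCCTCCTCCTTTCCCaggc
Rplp2 (chr7:141447621-141447670, plus strand): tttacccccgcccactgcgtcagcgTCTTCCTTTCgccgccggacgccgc
Rpl22l1 (chr3:28805478-28805527, plus strand): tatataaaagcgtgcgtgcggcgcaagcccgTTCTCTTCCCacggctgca
Rps27l (chr9:66946056-66946105, plus strand): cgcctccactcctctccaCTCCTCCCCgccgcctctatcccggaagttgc
Rpl36al (chr12:69184048-69184097, minus strand): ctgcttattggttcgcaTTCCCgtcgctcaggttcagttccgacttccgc
Rpl3l (chr17:24727796-24727845, plus strand): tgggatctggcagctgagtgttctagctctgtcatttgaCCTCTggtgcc
Rps2 (chr17:24720033-24720082, plus strand): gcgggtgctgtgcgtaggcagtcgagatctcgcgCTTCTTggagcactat
Rps3a1 (chr3:86142649-86142698, minus strand): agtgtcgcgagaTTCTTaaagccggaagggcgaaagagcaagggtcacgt
The first 6 carry a run of at least 7 pyrimidines there, and the last 4 do not. A run near the start need not be a TOP motif. The run of Rps27l, 9 bases long, begins 12 bases before the annotated start and ends before it. Rps6, whose product is the S6 kinase substrate, has 10 pyrimidines that begin 1 base before the annotated start, and Rpl13a has 14. Rpl3l, a paralogue of Rpl3 made in skeletal muscle and heart, has 5 at most.

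RefSeq promoters were matched for 61 of the 75 genes. A run of at least 7 pyrimidines on the transcribed strand lay in this window in 39 of the 61 (63.9%), against 31.9% of the 27025 genes with a promoter in the table. For purines on the same strand the shares were 16.4% of the members and 36.0% of all genes. The letters CCGGAAG, a core of ETS factor sites, were found on either strand of the promoters (250 bases before the start and 50 after) of 25 members (41.0%), against 9.93% of all genes. TATAAA was in 11.5% of the members and 15.7% of all genes, and the E-box CACGTG in 8.20% and 8.09%. A gene with several annotated starts was counted if any of them matched. A match is a description of letters, not of a factor's binding.

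Ribosomal protein genes differed little between mutant and wild-type antrum. The median log2 ratio over the 75 genes was 0.05, and the lower and upper quartiles were 0.005 and 0.09. Of the 75, 57 had a mean above 0 and 18 below. A mean above 0 was found for 76.0% of the members and for 52.1% of all 30649 features. Only Rpl3l had a mean further than 0.3 from 0, whereas 5.14% of all features did. The means of the other 74 lay between -0.17 (Rps3a1) and 0.26 (Rpl36al).

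No member passed limma's test across all 30649 features at an adjusted p of 0.05, and the lowest adjusted p among them was 0.923. The test called 0.00653% of all features higher and 0% lower. At an unadjusted p of 0.05, 2 members were higher (Rpl22l1 and Rpl36al) and 0 lower, where 2.74% of all features were higher and 2.16% lower, 4.9% in all. With the 2 dye orientations averaged, the 95% interval of the limma fit lay within 0.5 of 0 on the log2 scale for 73 of the 75 genes, and within 0.3 for 59. The exceptions at 0.5 were Rpl3l and Rps2, whose pairs differed most. For Rpl22l1 and Rpl36al the intervals, 0.09 to 0.34 and 0.08 to 0.44, lay above 0, but these are not adjusted for the number of features. The median SE of a member was 0.052.

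**Figure D1:**
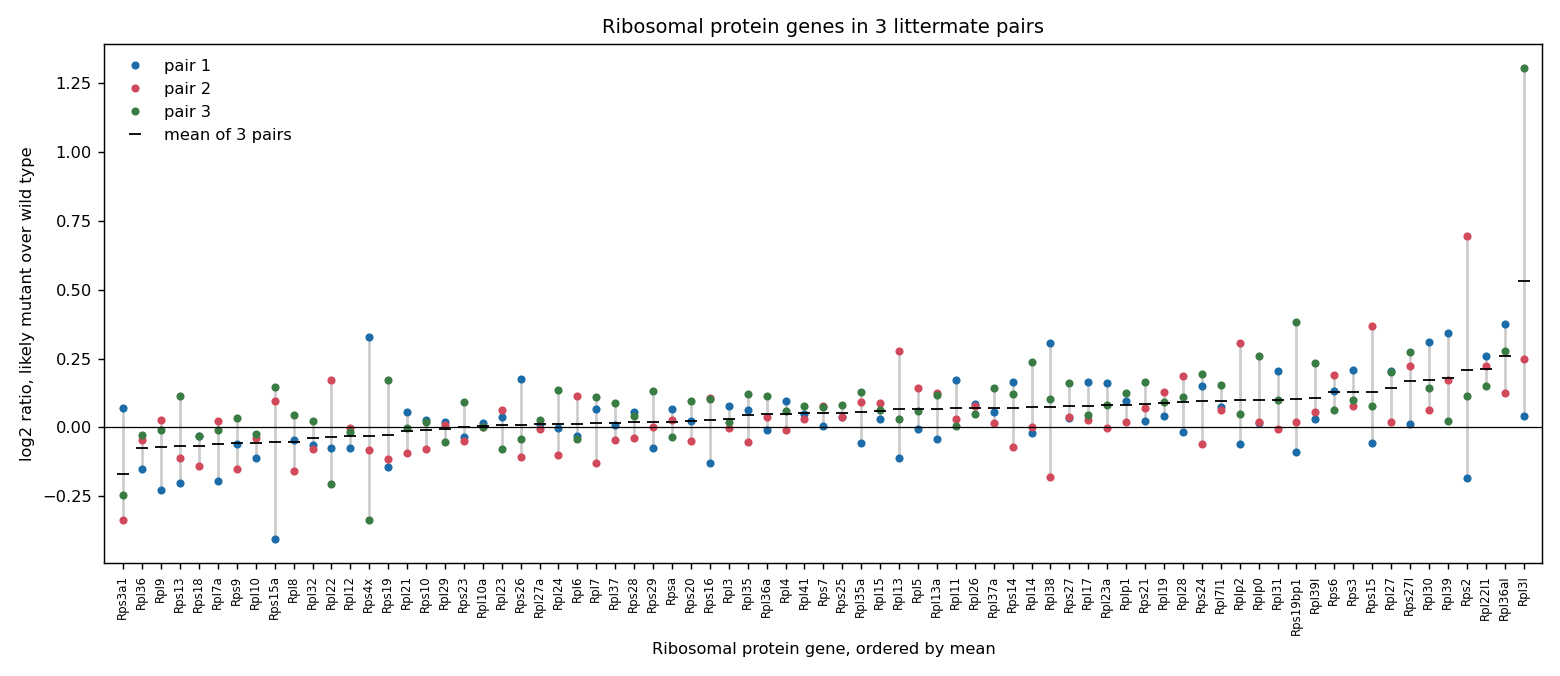
Log2 ratio (y axis, likely mutant over wild type) of the 75 ribosomal protein genes, ordered along the x axis by their mean. Coloured points are the 3 littermate pairs, each the average of 2 dye-exchanged arrays, black dashes are the mean of the 3 pairs, and grey lines join the lowest and highest pair; Rpl3l stands at 1.31 in pair 3 and Rps2 at 0.70 in pair 2, while 74 of the means lie between -0.17 and 0.26.

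The order of the genes was not kept from pair to pair. The member medians were 0.02, 0.02 and 0.08 in pairs 1, 2 and 3, and 46, 46 and 59 members were above 0. The members' pair means correlated across the 75 genes at r = -0.13 between pairs 1 and 2, 0.00 between pairs 1 and 3, and 0.26 between pairs 2 and 3. Without Rpl3l the last of these was 0.21. The genes share arrays and RNA extracts, so these correlations are descriptions. The median SD over pairs was 0.087 for the members and 0.097 for all features.

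The 3 highest means belonged to paralogues, none of which passed the test. All 6 paralogues had a mean above 0, with a median of 0.19, against 0.05 for the 40 large-subunit and 0.02 for the 24 small-subunit genes. On all 6 arrays 4 members were above 0, namely Rpl22l1, Rpl36al, Rpl15 and Rps21, and 1, Rpl10, was below 0. Of all features, 3.87% were above and 3.45% below 0 on all 6 arrays, so a count of 4 and 1 of 75 is near the background.

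Rpl22l1 encodes a paralogue of Rpl22 that can take its place in the ribosome. With the mutant in Cy5 it had 0.36, 0.30 and 0.18 in pairs 1 to 3, and with the mutant in Cy3 it had 0.17, 0.15 and 0.12. All 6 values lay above 0, and in each pair the Cy5 array gave the higher one. The mean was 0.21 ± 0.04 (SE, n = 3), a fold of 1.16, with an unadjusted p of 0.0101 and an adjusted p of 0.923 in the limma fit. Its partner Rpl22, an RNA-binding protein of the large subunit, had pair means of -0.07, 0.17 and -0.20, on both sides of 0.

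Rpl36al encodes a near copy of the large-subunit protein Rpl36a from a gene of its own. It had 0.43, 0.24 and 0.34 with the mutant in Cy5 and 0.32, 0.01 and 0.22 with the mutant in Cy3. The array of pair 2 with the mutant in Cy3 was near 0 and the other 5 were above 0.2. The mean was 0.26 ± 0.06 (SE, n = 3), a fold of 1.20, with an unadjusted p of 0.0174 and an adjusted p of 0.923. Rpl36a itself had 0.05 ± 0.05, with pair means of -0.01, 0.04 and 0.12.

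Rpl3l gave the highest mean of the family, and 1 pair set it. Its arrays had 0.03 and 0.05 in pair 1, -0.02 and 0.52 in pair 2, and 1.36 and 1.25 in pair 3, the first of each pair with the mutant in Cy5. Pair 3 was high in both orientations and pair 1 near 0 in both. The mean was 0.53 ± 0.29 (SE, n = 3), it was 0.15 without pair 3, and the adjusted p was 0.923. The ubiquitous Rpl3, which shapes the peptidyl transferase centre, had 0.08, -0.004 and 0.02 in the 3 pairs. Skeletal muscle genes, a list added after seeing the Rpl3l value, had medians of -0.01, 0.05 and -0.14 over 10 genes. In pair 3 these genes ran from -0.65 (Ckm) to 0.28 (Tnni2), with 1 of the 10 above 0. The part of muscle tissue in the Rpl3l value was not tested.

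The other paralogues lay closer to 0. Rps27l, a p53-induced relative of Rps27, had pair means of 0.01, 0.22 and 0.27, and Rps27 had 0.03, 0.04 and 0.16. Rpl39l, a paralogue best known from testis, had 0.03, 0.06 and 0.23, while Rpl39, a small protein of the exit tunnel, had 0.34, 0.17 and 0.03. Rpl7l1, a relative of Rpl7 that acts in large-subunit assembly, had a mean of 0.10 ± 0.04, and Rpl7 had 0.02 ± 0.06. The 2 probes of Rpl7l1 disagreed, with means of -0.004 and 0.20. Near-identical copies of these genes may share a probe's signal, and probe sequences were not used here, so the values of a paralogue and its partner are uncertain to that extent.

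The stalk of the large subunit recruits the elongation factors, with Rplp0 as its base and Rplp1 and Rplp2 as its arms. Rplp0 had -0.04 and 0.07 in pair 1, 0.04 and 0.00 in pair 2, and 0.27 and 0.25 in pair 3. Pair 3 was above the others in both orientations. The mean was 0.10 ± 0.07 (SE, n = 3), and the 2 probes of the gene gave 0.19 and 0.01. Rplp1 had pair means of 0.10, 0.02 and 0.13, and Rplp2 had -0.06, 0.31 and 0.05. Rpsa, a small-subunit protein also known as a laminin receptor, had 0.07, 0.03 and -0.03.

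Among large-subunit genes, Rpl30, Rpl39 and Rpl27 were highest. Rpl30, which in yeast also binds its own transcript, had pair means of 0.31, 0.06 and 0.14 and a mean of 0.17 ± 0.06. Rpl39 had 0.18 ± 0.08 and Rpl27 0.14 ± 0.06. For Rpl27 the 2 arrays of pair 1 gave -0.28 and 0.69, a difference larger than any between its pair means. At the low end were Rpl36 with -0.07 ± 0.05, Rpl9 with -0.07 ± 0.07 and Rpl7a with -0.06 ± 0.06. Rpl5 and Rpl11, which hold the 5S ribosomal RNA and bind Mdm2 when free, had 0.07 ± 0.05 each.

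Rps6 was above 0 on 5 of 6 arrays. Its arrays with the mutant in Cy5 had 0.21, 0.35 and 0.16, and those with the mutant in Cy3 had 0.06, 0.03 and -0.035. The Cy5 arrays were the higher ones in every pair, and the 2 orientations did not overlap. The mean was 0.13 ± 0.05 (SE, n = 3), with an unadjusted p of 0.0517 and an adjusted p of 0.923 in limma. Rps3, a protein of the mRNA entry channel that also acts in DNA repair, was close to it with 0.13 ± 0.05 and pair means of 0.21, 0.08 and 0.10.

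Rps2 and Rps3a1 stood at the ends of the small-subunit genes. Rps2, also of the mRNA entry channel, had -0.31 and -0.05 in pair 1, 1.14 and 0.25 in pair 2, and 0.18 and 0.05 in pair 3. A single array, pair 2 with the mutant in Cy5, was above 1, and pair 1 was below 0. Its mean of 0.21 ± 0.19 did not pass the test (adjusted p 0.926, limma). Rps3a1, the mouse form of the small-subunit protein Rps3a, had 0.26 and -0.12 in pair 1, -0.18 and -0.49 in pair 2, and -0.19 and -0.30 in pair 3. Of the 6 arrays 5 were below 0, and the mean was -0.17 ± 0.10 (adjusted p 0.923). Rps13 and Rps18, both of the small subunit, had -0.07 ± 0.08 and -0.07 ± 0.05.

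Rps15a and Rps4x also changed sign between pairs. Rps15a had pair means of -0.41, 0.10 and 0.15. Rps4x, the X-linked small-subunit gene, had 0.33, -0.08 and -0.34. Pair 3 is the pair whose Y-linked gene Eif2s3y stood at -5.06, against -0.03 and -0.05 in the others. The other X-linked members, Rpl10, Rpl36a and Rpl39, had -0.02, 0.12 and 0.03 in pair 3. The part of sex in the Rps4x value was not tested.

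The family's dye effects were about as large as its mean log2 ratios of mutant over wild type. For each gene a dye effect, red over green, was taken as the mean of a pair's 2 arrays with no sign turned, in which the genotype difference cancels. The median dye effect of the 75 genes was 0.05, with 0.03, 0.07 and 0.05 in pairs 1, 2 and 3. It was above 0 for 53 of the 75 (70.7%), against 47.7% of all named genes. For 45 of the 75 (60.0%) the dye effect was larger in size than the genotype mean, as it was for 36.2% of all named genes.

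The lean toward red recurred in each pair. In 39 members the dye effect was above 0 in all 3 pairs and in 9 it was below 0 in all 3. Over all features, 18.1% were above 0 in all pairs and 18.5% below. Limma's test of the dye effect, fitted over all features, called 0% of features red and 0% green at an adjusted p of 0.05. At an unadjusted 0.05 it gave 27 members toward red and 5 toward green, where 6.27% and 5.15% of all features passed. Across the 75 genes the dye effects of 2 pairs correlated at r = 0.37 (pairs 1 and 2), 0.42 (1 and 3) and 0.59 (2 and 3), all above the correlations of the pair means for the same genes. In the same order they were 0.16, 0.23 and 0.27 for all named genes. For the mitochondrial ribosomal protein genes they were 0.25, 0.44 and 0.37, so dye effects that recur between pairs were not particular to the members.

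**Figure D2:**
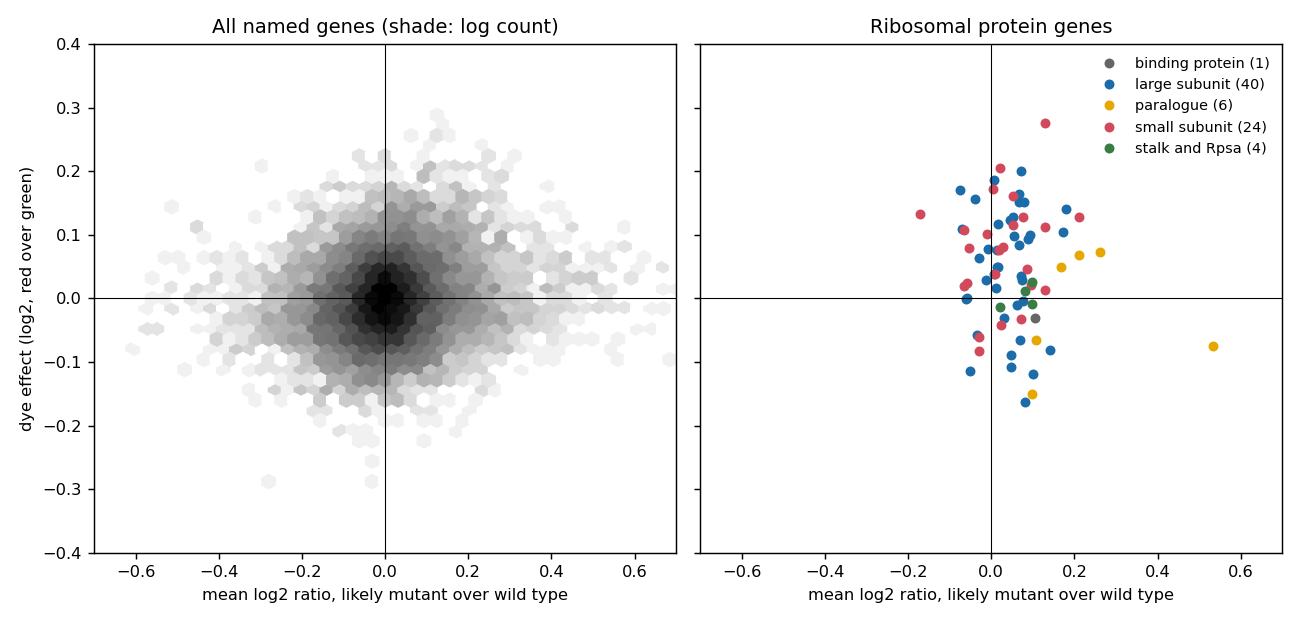
Dye effect (y axis, log2 of red over green) against the mean log2 ratio (x axis, likely mutant over wild type). The left panel shades 14871 named genes by the logarithm of their number, with 252 outside the axes, and the right panel shows the 75 ribosomal protein genes coloured by class with the number of genes in brackets; 53 of the 75 lie above 0 on the dye axis and 57 to the right of 0.

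The 2 dye orientations therefore gave different pictures of the same RNA. With the mutant in Cy5 the members' medians were 0.06, 0.10 and 0.15 in pairs 1 to 3, with 48, 54 and 66 of 75 genes above 0. With the mutant in Cy3 the medians were -0.02, -0.04 and 0.01, with 36, 23 and 39 above 0. Averaged over the Cy5 arrays alone, 60 of 75 genes were above 0 with a median of 0.09, and over the Cy3 arrays alone 35 were, with a median of -0.0049. All named genes had array medians between -0.008 and 0.012. The count of 57 of 75 genes above 0 comes from the mean of both orientations. A dye effect cancels there only where it is equal on both arrays of a pair, which was not tested. A mean ratio and a dye effect of like size and sign add up in the Cy5 arrays and offset each other in the Cy3 arrays. With the mutant in Cy3, the 6 paralogues had medians of 0.14, 0.14 and 0.24 in pairs 1 to 3. The 40 large-subunit genes had -0.01, -0.05 and -0.015 there, and the 24 small-subunit genes -0.06, -0.09 and 0.003. The cause of the lean was not tested.

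**Figure D3:**
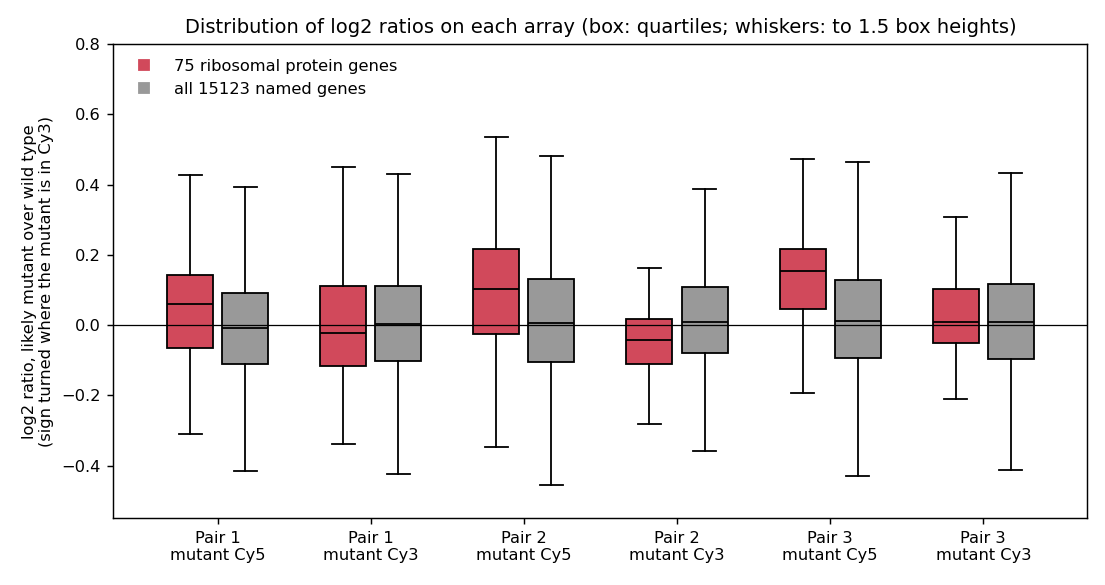
Log2 ratios (y axis, likely mutant over wild type, sign turned where the mutant is in Cy3) on each of the 6 arrays, for the 75 ribosomal protein genes (red) and all 15123 named genes (grey). Boxes span the quartiles with the median as a line; the red medians stand at 0.06, 0.10 and 0.15 with the mutant in Cy5 and at -0.02, -0.04 and 0.01 with the mutant in Cy3, while the grey medians stay near 0.

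Agreement between the 2 orientations of a pair was low for these genes. Across the 75, the turned ratios of the 2 arrays correlated at r = -0.06 in pair 1, 0.15 in pair 2 and 0.70 in pair 3. Without Rpl3l the value in pair 3 was 0.36. Across all 15123 named genes the same correlations were 0.70, 0.83 and 0.90. By rank the correlations were -0.01, 0.08 and 0.21 for the members and 0.40, 0.58 and 0.71 for all named genes. The median size of the log2 ratio, sign left out, was 0.066 for the members and 0.0577 for all named genes. The members' ratios were less spread, however. Their means ran from -0.17 to 0.53 with quartiles of 0.005 and 0.09. Those of all named genes ran from -1.71 to 3.485 with quartiles of -0.05 and 0.07. The part of this narrower spread in the members' low correlations was not tested. The correlations are descriptions across genes that share arrays. The 75 mitochondrial ribosomal protein genes, a like family of the organelle's own ribosome, had 0.03, 0.07 and 0.59.

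Single members showed the dye effect plainly. Rps15, whose product lies near the decoding site, had the highest, 0.28 ± 0.08 (SE, n = 3), with 0.06, 0.90 and 0.26 in pairs 1 to 3 when the mutant was in Cy5 and -0.17, -0.16 and -0.10 when it was in Cy3. The sign of its ratio followed the dye in every pair. Its dye effect was largest in pair 2, at 0.53, against 0.12 and 0.18 in pairs 1 and 3. Rps29, a zinc-binding small-subunit protein, had 0.07, 0.26 and 0.34 against -0.22, -0.25 and -0.08, and Rpl37a, a zinc-binding large-subunit protein, had 0.26, 0.23 and 0.33 against -0.14, -0.20 and -0.05. Both reversed sign with the dye in each pair, and the mean genotype ratios were 0.02 ± 0.06 and 0.07 ± 0.05. Toward green the largest were Rpl23a, beside the exit tunnel, with -0.16, Rpl7l1 with -0.15 and Rpl31, also beside the exit, with -0.12. For Rpl23a this came mostly from pair 1, whose 2 arrays gave -0.44 and 0.76.

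Rpl13a, a large-subunit protein that also takes part in the GAIT complex of translational control, was measured by 23 probes and shows how the probes of 1 transcript behaved. Of these, 20 have identifiers that begin with mCP and 3 do not. The mCP probes had medians of 0.11, 0.28 and 0.29 with the mutant in Cy5 and -0.25, -0.01 and -0.08 with the mutant in Cy3, and all 20 had a dye effect above 0, with a median of 0.15. The other 3 probes had a median dye effect of -0.02, and 1 of them was above 0. Averaged over orientations the groups came together: the median log2 ratio was 0.06 over the mCP probes and 0.08 over the other 3. The gene's mean was 0.07 ± 0.05 (SE, n = 3), and its probes ranged from -0.02 to 0.21. Of the 20 members with more than 1 probe, Rpl13a had the widest range, 0.23, followed by Rpl7l1 (0.20) and Rplp0 (0.18).

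**Figure D4:**
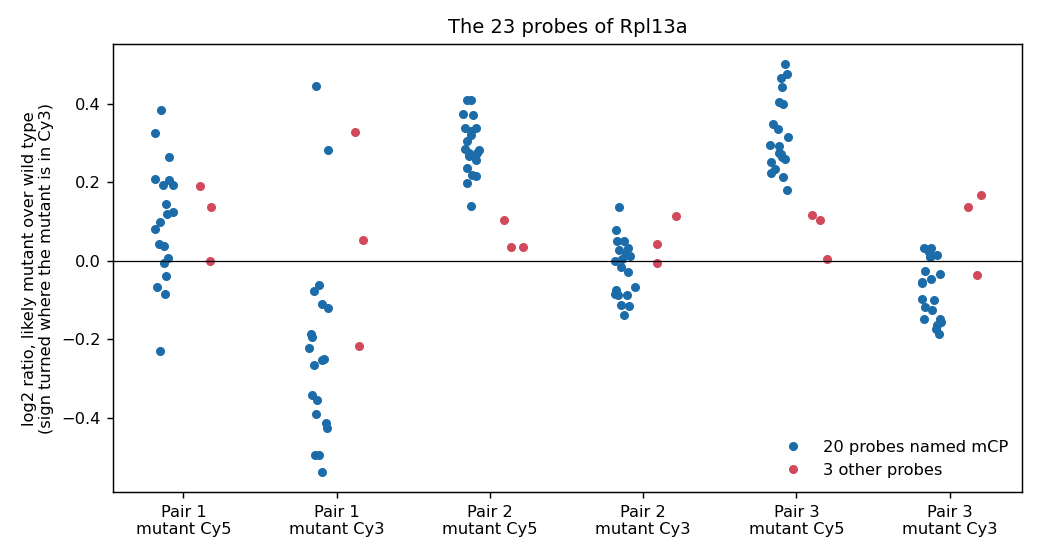
Log2 ratios (y axis, likely mutant over wild type, sign turned where the mutant is in Cy3) of the 23 Rpl13a probes on the 6 arrays, with a small horizontal scatter for legibility. The 20 mCP probes (blue) have medians of 0.11, 0.28 and 0.29 when the mutant is in Cy5 and of -0.25, -0.01 and -0.08 when it is in Cy3, and the 3 other probes (red) do not part in this way.

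Ratios were also set beside the pyrimidine runs near the start. The 39 genes with a run of at least 7 pyrimidines had a median log2 ratio of 0.07, and the 22 without one had 0.02. The dye effect had a median of 0.05 in both sets. For the ETS letters the medians were 0.06 with and 0.05 without. These differences between sets were not tested.

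None of the other genes of translation passed over all features. The 75 mitochondrial ribosomal proteins had a median of 0.02 with 47 above 0, and at an unadjusted 0.05, 5 were higher and 0 lower, where 2.74% and 2.16% of all features were. The values were 0.17 ± 0.05 for Mrps36, 0.17 ± 0.05 for Mrpl20 and 0.13 ± 0.04 for Mrpl36. Their median dye effect was -0.004, against 0.05 for the cytosolic proteins, a difference that was not tested. A lean toward red was also found outside the family. The dye effect had a median of 0.13 over 6 housekeeping genes, all 6 above 0 in all 3 pairs. These genes (Actb, B2m, Gapdh, Hprt, Tbp and Ywhaz, a list added after seeing the data) are controls with many probes, 30 to 79 each. The part of mCP probes in their lean was not tested. Over the 9 gastric surface and mucous genes the median dye effect was 0.09. Of 23 initiation factor genes 12 were above 0, with a median of 0.01. Eif3c, a core subunit of eIF3, had -0.10 ± 0.04, the helicase Eif4a1 0.20 ± 0.09 and the cap-binding protein Eif4e 0.14 ± 0.07. Of 8 elongation and termination factor genes 7 were above 0, with a median of 0.06. Eef1a1, which delivers aminoacyl-tRNA, had 0.11 ± 0.06, Eef1g, a subunit of its exchange factor complex, 0.09 ± 0.08 and Eef2, the translocase, -0.16 ± 0.06.

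Genes that make ribosomes varied more between pairs, with a median SD of 0.229 against 0.0875 for the members. The 23 biogenesis genes had medians of -0.13, -0.04 and 0.29 in pairs 1 to 3, and 16 had a mean above 0. Pes1 and Bop1, which form a complex needed for the large subunit, had 0.37 ± 0.19 and 0.20 ± 0.10, and Nob1, the nuclease that finishes the small-subunit RNA, had -0.14 ± 0.04 and was below 0 on all 6 arrays. Pair 3 was thus the highest pair for the biogenesis list and for the ribosomal proteins. It was also the highest for the initiation factors, the elongation and termination factors, the mitochondrial ribosomal proteins and the leukocyte genes. For the mTOR and Myc genes pair 2 was the highest. In pair 3 the biogenesis medians were 0.31 with the mutant in Cy5 and 0.28 in Cy3, against 0.15 and 0.01 for the ribosomal proteins. Tpt1, Pabpc1 and Fau, other carriers of TOP motifs or of a fused ribosomal protein, had 0.09 ± 0.04, -0.09 ± 0.08 and -0.05 ± 0.05. The 5 measured genes of that list had a median of 0.01, with 3 above 0.

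Genes that control translation downstream of receptor kinases gave no common direction either. The 13 mTOR and Myc pathway genes had a median of -0.01, with 6 above 0. Maf1, a repressor of RNA polymerase III, had -0.17 ± 0.11, Tsc2, an inhibitor of mTOR, -0.10 ± 0.09 and Eif4ebp1, the mTOR-regulated inhibitor of Eif4e, 0.06 ± 0.07. The 6 ribosomal S6 kinase genes, which the symbol rule leaves out, had a median of -0.01. The members with the lowest p were Rps6ka6 with 0.06 ± 0.07, Rps6kc1 with -0.03 ± 0.05 and Rps6ka5 with -0.04 ± 0.06.

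The pieces differed in other tissue markers far more than in ribosomal proteins. The 13 liver genes had medians of -0.08, 3.14 and 2.41 in pairs 1, 2 and 3, the 9 exocrine pancreas genes -2.36, -0.08 and -0.08, and the 4 red blood cell genes 1.06, -0.09 and -0.15. The 9 leukocyte genes had -0.25, 0.30 and 0.42, the 11 smooth muscle genes -0.76, 0.22 and -0.63, and the 9 gastric surface and mucous genes 0.12, -0.19 and -0.02. The 9 genes of the interstitial cells of Cajal had 0.20, 1.89 and 0.86. Among the members with the lowest p were Apoa2 with 2.58 ± 0.75, Fgg with 1.78 ± 0.63 and Serpina1a with 2.49 ± 0.89 for liver, Rnase1 with -0.83 ± 0.23, Pnliprp1 with -1.12 ± 0.49 and Cel with -0.86 ± 0.51 for pancreas, and Prkcq with 2.42 ± 0.37, Pde3a with 1.53 ± 0.34 and Thbs4 with 0.62 ± 0.16 for the Cajal cells. Of the 9 pancreas genes, 8 had a mean below 0 and 1, Clps, had a mean above 0. Clps had 0.14 ± 0.40, with pair means of 0.50, 0.87 and -0.93. Other markers of the Cajal list lay below 0, namely the chloride channel Ano1 with -0.11 ± 0.04, below 0 in all 3 pairs, and Cacna1h with -0.07 ± 0.14. Beside these, the ribosomal protein medians of 0.02, 0.02 and 0.08 kept within 0.1 of 0 in all 3 pairs. The mitochondrial ribosomal proteins (0.0055, 0.015 and 0.06) and the initiation factors (-0.04, 0.01 and 0.095) did so as well. The biogenesis genes and the elongation and termination factors did not, with medians of 0.29 and 0.17 in pair 3. The part of other tissue in the members' ratios was not tested.

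**Figure D5:**
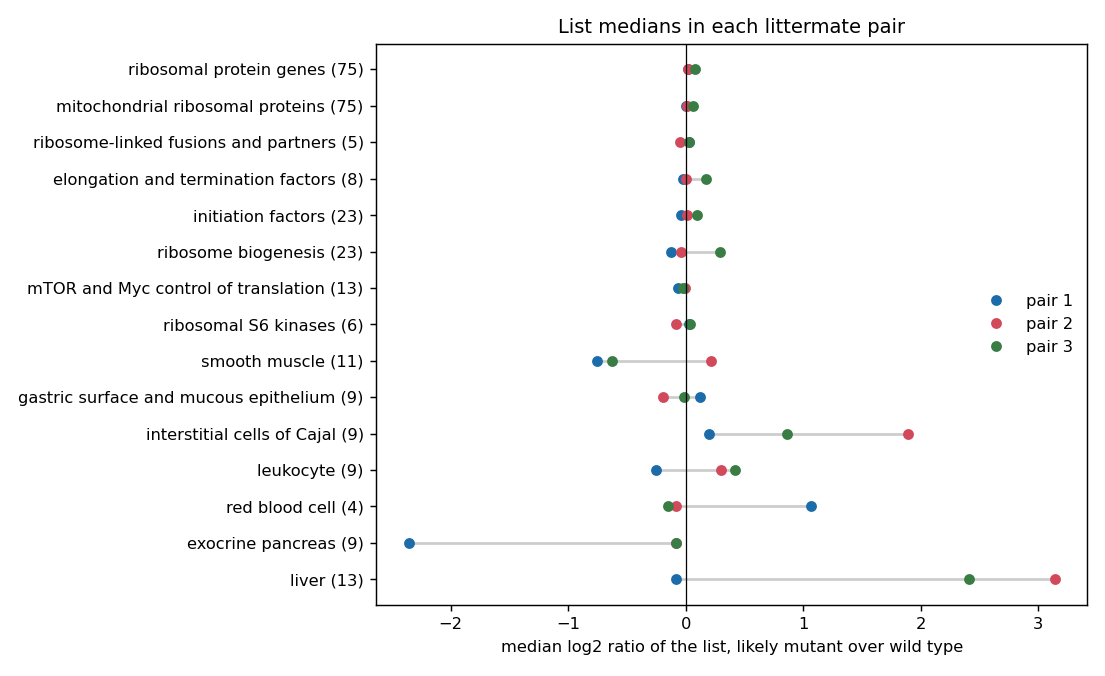
Median log2 ratio (x axis, likely mutant over wild type) of each gene list in pairs 1, 2 and 3, with the number of measured genes in brackets and a grey line from the lowest to the highest pair. The ribosomal protein medians lie at 0.02, 0.02 and 0.08, whereas the liver list spans -0.08 to 3.14 and the pancreas list -2.36 to -0.08.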

How the data were processed

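Total RNA of antrum from 3 littermate pairs was turned into aminoallyl-modified antisense RNA, labelled with the dyes and put on arrays of 70-base mouse probes, per the labels' protocols. The authors deposited 1 table of 38467 probes, read here as log2 ratios: values reach 5.83 in size, past the 4.82 that log10 of a scanner maximum of 65535 gives, while a natural logarithm cannot be told apart. The normalization was not given in any source used here. Across the deposited probes, both arrays of a pair had opposite signs (r = -0.61, -0.74 and -0.83), as the dye labels imply.

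Arrays with the mutant in Cy3 had their sign turned. The platform annotation names 1 gene for 22941 probes and none for 15526. Probes of a gene were averaged, unnamed probes kept singly (30649 features), and the 3 pair means tested against 0 with limma (R 4.3.3, limma 3.58.1; lmFit and eBayes, two-sided, Benjamini-Hochberg at 0.05; 2 residual and 1.80 prior degrees of freedom). SE is limma's moderated error. The code was tested on simulated data. The number of arrays limits the precision.

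The members, lists and tests were chosen with earlier results of these data known. Members named are Rplp0, Rplp1, Rplp2, Rpsa and Rps6, the 6 highest and 6 lowest means, the 6 lowest p, paralogues with partners, the 3 widest probe ranges and the 3 highest and 3 lowest dye effects (33 genes), with up to 3 genes of each other list. Rps4x, Rps15a, Rpl5, Rpl10, Rpl11, Rpl15, Rps21, Rps19bp1, Ckm, Tnni2, Clps, Ano1, Cacna1h and the housekeeping genes were named after their values were seen. Alternatives were centring, scaling, single probes, a pair as random block, 1 orientation, named genes only, robust eBayes and leaving out a pair; a dye term in that block, the core members alone and leaving out mCP probes were added after seeing the data.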

Additional observations from a re-analysis of the deposited data

How the results depend on the processing

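No ribosomal protein gene was called under any of the 13 alternatives to the fit of pair means, and the lowest adjusted p of a member ran from 0.253 (pair as a random block) to 1.00 (without pair 3). The family's median log2 ratio was 0.0913 on the arrays with the mutant in Cy5 alone and -0.00489 with the mutant in Cy3 alone, where 15 and 30 of the 75 genes had the other sign from the mean of both orientations; the difference between these settings is the dye orientation itself. Over the alternatives that used both orientations and all 3 pairs the median was 0.05, and with a pair left out it ran from 0.0385 to 0.0488. Over all features, 2 higher and 0 lower calls became 0 higher with a common scale, 0 with each probe on its own, 0 with the mutant in Cy5 only, 1 with the mutant in Cy3 only, 0 without any 1 pair, 44 higher and 17 lower with the pair as a random block, and 10 higher and 5 lower with a dye term added to that block; the cause was not tested. The dye effect had 0 calls, against 87 red and 1 green with a common scale and 57 red and 1 green with robust eBayes, none of them a ribosomal protein gene. No intensity was used, so what a dim signal limits is unknown.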
